A study of Rattus norvegicus with 12 samples.

Results

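The cardiac lineage transcription factors are the DNA-binding proteins that specify the heart in the embryo and hold the gene programme of its muscle cells in the adult. Their mRNAs were followed here across rat hearts with and without infarction, exercise and BAIBA. The 10 genes were taken by symbol from the deposited table of 34700 genes: Gata4, Gata6, Nkx2-5, Tbx5, Tbx20, Hand1, Hand2, Mef2a, Mef2c and Mef2d. All of them were in the table under 1 rat Ensembl identifier each, and 9 of the 10 had enough reads to be tested. All animals were male Sprague-Dawley rats operated on at 8 weeks of age, and the hearts were taken 12 weeks after surgery. In the Sham group a thread was passed around the anterior descending coronary artery without tying it. In the HF group the artery was tied to give an infarct and then heart failure (HF), and the rats stayed sedentary (labelled HF+Sed). The HFE rats (HF+Exe) had the same operation and then 8 weeks of treadmill running, 60 min per session and 5 sessions a week. The BAIBA rats (HF+Med) had the same operation and were gavaged over 8 weeks with 75 mg/kg/day of β-aminoisobutyric acid (BAIBA), a small molecule that muscle releases during exercise. By the methods, HFE rats belonged to an exercise study and BAIBA rats to a BAIBA study, each described with Sham and HF groups. In the BAIBA study the Sham and HF rats were gavaged with the same volume of water, which is not stated for the HFE rats. A supplementary scheme instead words BAIBA as given to the Sham and HF groups. Which study the sequenced Sham and HF rats came from is not stated. In BAIBA against HFE, study and treatment cannot be told apart. Rats with an infarct had been allotted to groups by ejection fraction, a measure of pumping. Each group had 3 rats with 1 library each. The tissue is given as heart in the labels and as the front wall of the left ventricle in the methods, with the region around the infarct named there for the BAIBA group and elsewhere in the paper for the HF and BAIBA groups, so the site of sampling and the group cannot be told apart.

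These factors act together on shared promoters and enhancers. The GATA zinc-finger proteins, the homeodomain protein NKX2-5 and the T-box proteins bind next to each other and to each other, the HAND basic helix-loop-helix proteins pattern the ventricles, and the MADS-box proteins of the MEF2 family switch on muscle genes. In the adult heart GATA4 and the MEF2 proteins are also known as mediators of hypertrophic growth under load, while much of their regulation lies in phosphorylation and partner binding, which mRNA does not show.

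Per gene length, the adult ventricle held 9 of the 10 mRNAs at levels well above most genes. FPKM (reads scaled by gene length and library size, computed by the authors) allows genes to be set side by side. The mean FPKM over 12 rats was 28.9 ± 2.60 (SD, n = 12) for Mef2d, 23.9 ± 3.04 for Gata4, 22.3 ± 3.23 for Mef2a, 22.3 ± 3.54 for Gata6 and 21.7 ± 3.22 for Nkx2-5. Mef2c followed at 15.9 ± 1.59 and Hand2 at 14.4 ± 3.90. The T-box genes were lower, with a mean FPKM of 7.29 ± 2.04 for Tbx20 and 5.83 ± 1.00 for Tbx5. Each gene's range over the 12 rats overlapped that of the next gene in this order, except between Tbx5 (lowest 4.17) and Hand1 (highest 0.176). Mef2d was above Gata4 in 11 of 12 rats and Nkx2-5 above Mef2c in 12 of 12, whereas Mef2a was above Gata6 in 5 of 12, so that pair had no order. Among the 24775 genes with a read in any rat, the mean FPKM of Mef2d was at percentile 92.6, that of Gata4 at 91.0 and that of Tbx5 at 71.5. FPKM depends on the gene length counted, which was 645 bases for Hand2 and 6451 for Mef2c.

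**Figure D1:**
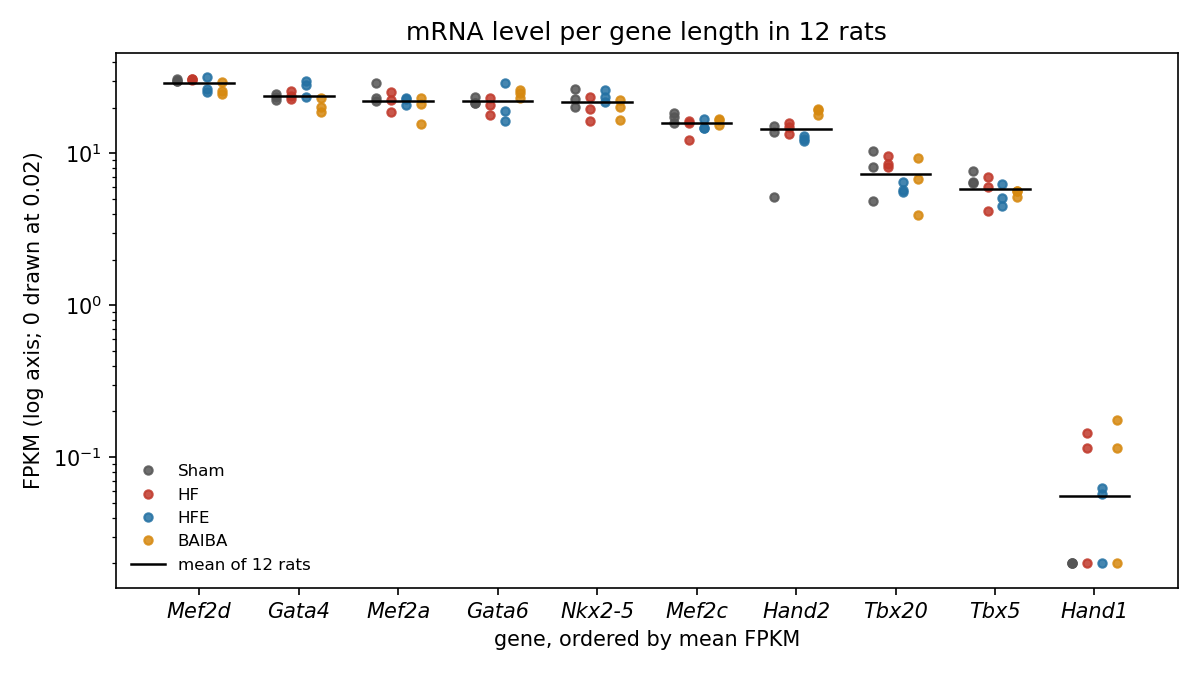
FPKM of the 10 genes in each of the 12 rats (points, coloured by group) on a log axis, with the mean over all rats as a bar and values of 0 drawn at the bottom. The 9 measured genes lie between a mean of 5.83 (Tbx5) and 28.9 (Mef2d), and Hand1 lies far below them at 0.0557.

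Depth was even, at 14812541 to 19732588 counts per rat. The tissue label was checked with marker sums in CPM (library-scaled counts, with TMM factors). Of the cardiomyocyte list, 11 of 12 genes were in the table and each had 10 or more counts in a rat, and their sum was 57200 to 59020 in Sham, 49670 to 51520 in HF, 51220 to 58430 in HFE and 49990 to 56950 in BAIBA rats. Every HF rat was below every Sham rat on this sum. The list holds the myosin gene Myh6 and not Myh7, and Myh6 had a log2 fold change of -0.615 in HF against Sham (DESeq2 adjusted p = 0.000721). The edgeR test used for the members below called 0% of all genes in this comparison, so it did not call Myh6. The part of Myh6 in the sum was not tested. The atrial list (Myl7, Sln and others, 5 of 6 with 10 or more counts in a rat) summed to 95.8, 56.4 and 97.4 in Sham, 39.4, 31.4 and 58.5 in HF, 74.5, 32.3 and 34.5 in HFE and 34.9, 43.4 and 48.5 in BAIBA rats, so that every Sham rat was above every BAIBA rat. BAIBA rat 1 stood apart, with the highest sums of the 12 rats for the fibroblast (2526, all 10 genes counted), macrophage (259.0, 7 of 7) and epicardial lists (93.6, 6 of 6) and the lowest for the endothelial list (622.1, 7 of 8 in the table). Smooth muscle genes (7 of 7) summed to 408.8 to 594.3 and erythroid genes (5 of 5) to 501.3 to 1304 over the 12 rats. On the macrophage list every HFE rat (73.23 to 103.1) was below every rat of the other groups (105.9 or more). On the erythroid list every BAIBA rat (904.9 to 1304) was above every HFE rat (720.5 to 827.2). The BAIBA and HFE rats overlapped on all the other lists. The part of these sums in the levels of the members was not tested. In bulk tissue, fewer cells of a type and less RNA per cell cannot be told apart.

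No member passed the test in any comparison. edgeR's quasi-likelihood test with Benjamini-Hochberg adjustment over all genes called 0 of 9 members tested at an adjusted p under 0.05 in HF against Sham, HFE against Sham, BAIBA against Sham, HFE against HF, BAIBA against HF and BAIBA against HFE. The same test called 0%, 0%, 0.0402%, 0%, 0% and 0.108% of all genes in these comparisons, in that order. At an unadjusted p under 0.05 it found 0, 1, 1, 1, 1 and 3 of the 9 members, where the shares of all genes were 6.0%, 11.2%, 7.41%, 7.62%, 5.55% and 9.57%. In the test of any difference among the 4 groups, 0 of 9 members and 0% of all genes were called, with 1 of 9 members (Gata4) and 9.71% of all genes at an unadjusted p under 0.05. DESeq2 called 0 of 9 members in 5 of the 6 comparisons, where it called 0.334%, 1.11%, 0.659%, 0.324% and 0.222% of all genes, and 1 of 9, Gata4, in BAIBA against HFE, where it called 2.03%. Over the 4 groups DESeq2 called 1 of 9, again Gata4, against 1.97% of all genes. With the replicate number as a block, edgeR called 0 of 9 members in each comparison, while its calls over all genes in BAIBA against HFE went from 16 to 50. The comparisons share rats, since each group enters 3 of them. Whether the counting used the strand is not given, so reads from antisense neighbours of these genes cannot be told apart from their own.

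The differences of the members were small. Their log2 fold changes lay between -0.23 and 0.38 in HF against Sham, between -0.34 and 0.26 in HFE against Sham, between -0.31 and 0.73 in BAIBA against Sham, between -0.53 and 0.29 in HFE against HF, between -0.40 and 0.34 in BAIBA against HF and between -0.44 and 0.55 in BAIBA against HFE. The median absolute log2 fold change of the 9 members was 0.182, 0.102, 0.214, 0.115, 0.240 and 0.153 in the 6 comparisons, beside 0.140, 0.156, 0.146, 0.161, 0.158 and 0.158 over all genes, so it was above the latter in 3 comparisons and below it in the other 3. The count of members whose rats did not overlap between the groups was 0 of 9 in HF against Sham (11.8% of all genes), 2 in HFE against Sham (17.7%), 4 in BAIBA against Sham (12.7%), 2 in HFE against HF (14.4%), 3 in BAIBA against HF (11.4%) and 3 in BAIBA against HFE (15.5%). On the TMM-scaled CPM used for these counts, the 3 BAIBA rats lay outside the range of all the other 9 rats for 2 members. They were above it for Hand2 and below it for Gata4, and outside it for 1.65% of all genes. No member set the Sham, HF or HFE rats apart in this way, as 1.05%, 1.2% and 2.39% of all genes did. In FPKM, which has no TMM factors, the BAIBA rats stood apart for Hand2 and not for Gata4.

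**Figure D2:**
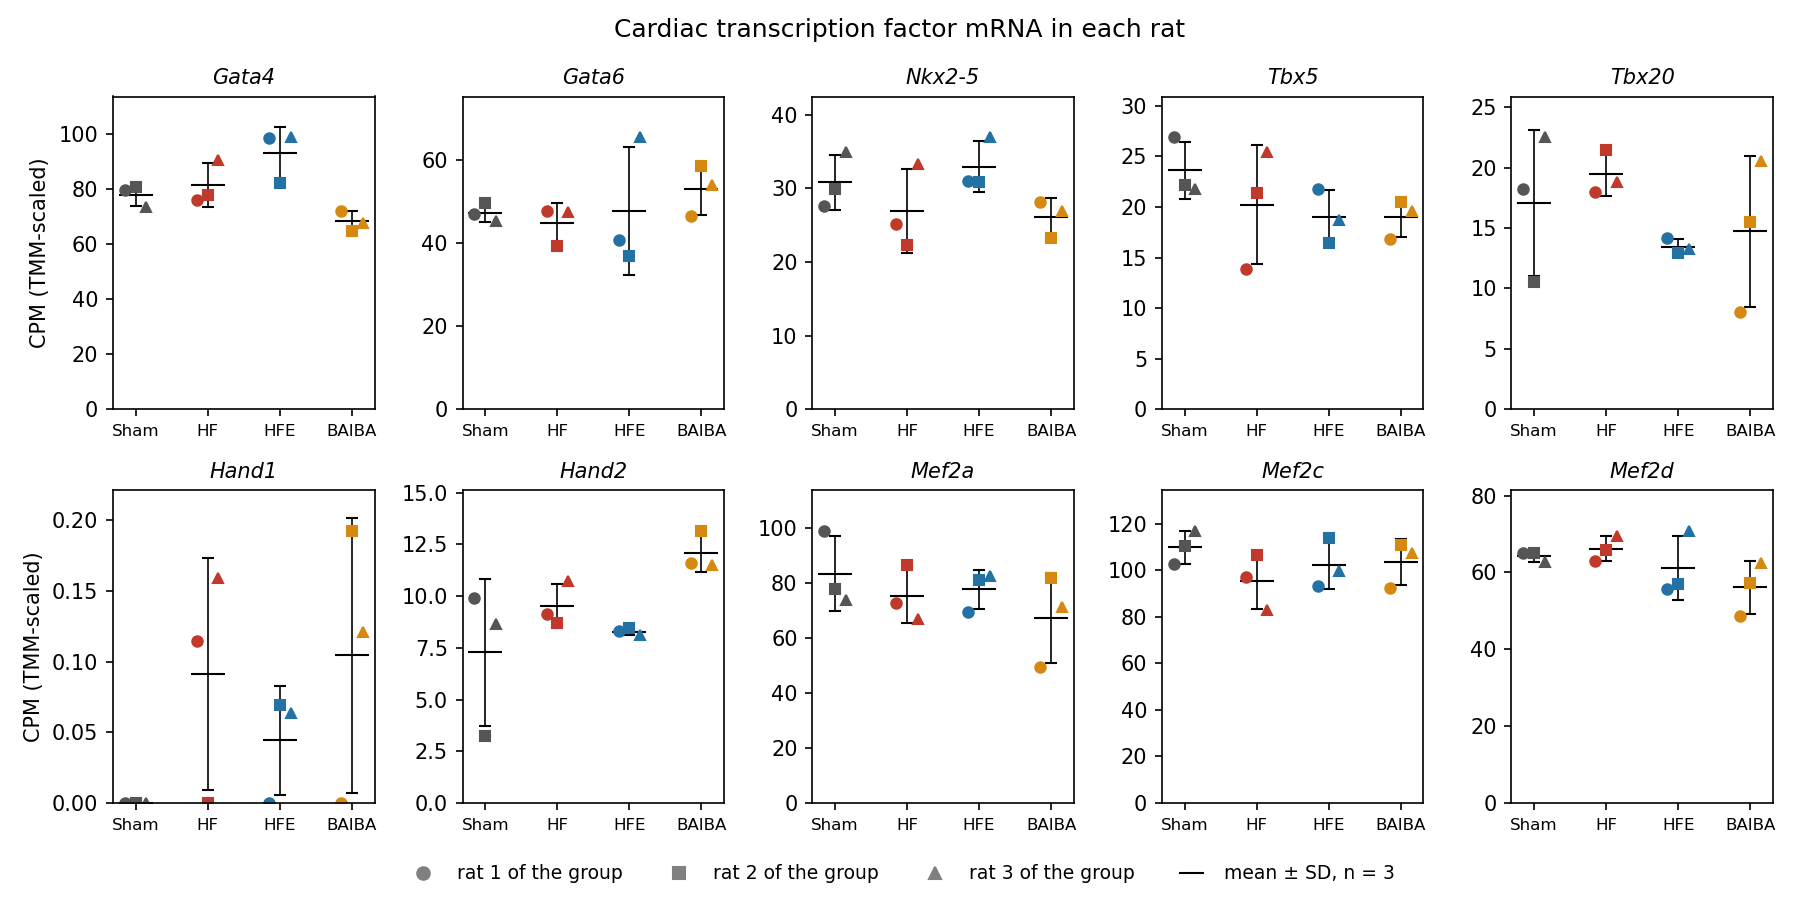
CPM (TMM-scaled) of each of the 10 genes in every rat, by group, with a point shape for each rat's number and the mean ± SD of 3 rats as bars. For Gata4 the BAIBA rats (64.9 to 72.2) lie below all others, and for Hand2 they (11.5 to 13.2) lie above all others.

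Gata4 encodes a zinc-finger factor that activates natriuretic peptide and contractile genes and that the adult heart needs for its growth response. It stood at 79.9, 80.8 and 73.5 CPM in the Sham rats, 76.1, 77.8 and 90.7 in the HF rats, 98.5, 82.3 and 98.9 in the HFE rats and 72.2, 64.9 and 67.9 in the BAIBA rats. With TMM scaling all BAIBA rats were below all other rats, all HFE rats were above all Sham rats, and the Sham and HF rats overlapped. In FPKM, which has no TMM factors, BAIBA rat 1 (23.17) was above Sham rat 3 (22.42) and HF rat 2 (22.94). HFE rat 2 (23.42) was there below Sham rats 1 (23.62) and 2 (24.57), and the BAIBA rats were still below all HFE rats. Gata4 was 0.734-fold as high in BAIBA as in HFE rats (log2 fold change -0.44, SE 0.11, unadjusted p = 0.00288, adjusted p = 0.202 by edgeR's quasi-likelihood test). DESeq2 gave this difference a log2 fold change of -0.44 and an adjusted p of 0.0374, so the call depends on the tool. Gata4 was 0.838-fold as high in BAIBA as in HF rats (-0.26, SE 0.11) and 1.2-fold as high in HFE as in Sham rats (0.26, SE 0.09), with edgeR adjusted p-values of 0.852 and 0.365. An exact permutation test over the 15400 ways to split 12 rats into 4 groups gave p = 0.0138 for Gata4. This was the lowest of 10 such tests, unadjusted, and the other 9 gave p-values from 0.106 (Hand2) to 0.679 (Gata6). Gata4 without BAIBA rat 1 had a log2 fold change of -0.49 against HFE.

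Gata6 is the other GATA gene of heart muscle, and its protein can partly stand in for GATA4. Its CPM was 46.8, 49.7 and 45.2 in Sham, 47.6, 39.3 and 47.3 in HF, 40.6, 36.9 and 65.3 in HFE and 46.4, 58.4 and 53.9 in BAIBA rats. The groups overlapped in every comparison, and HFE rat 3 held the highest value of all 12 rats while the other HFE rats were among the lowest. The log2 fold changes of Gata6 ranged from -0.08 (HF against Sham, SE 0.10) to 0.24 (BAIBA against HF, SE 0.13), both nearer to 0 without HF rat 2 (-0.00080 and 0.15), and that of HFE against Sham was 0.02 with TMM and -0.04 with library-size scaling. Nkx2-5, the homeodomain gene required for the looping heart tube and the conduction system, was at 27.6, 29.95 and 34.9 CPM in Sham, 25.2, 22.3 and 33.3 in HF, 31.0, 30.9 and 36.9 in HFE and 28.2, 23.3 and 26.9 in BAIBA rats. With TMM scaling the BAIBA rats were all below the HFE rats (0.795-fold, log2 fold change -0.33, SE 0.12, unadjusted p = 0.0261, edgeR adjusted p = 0.440) and overlapped the Sham and HF rats. In FPKM, which has no TMM factors, BAIBA rat 1 (22.55) was above HFE rat 2 (21.93). HF rat 3 lay well above the other HF rats for Nkx2-5, as it did for Gata4.

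The T-box genes had the lowest mean FPKM of the 9 tested members, while in CPM, which is not scaled by length, Hand2 was lowest. Tbx5, a driver of chamber formation whose loss causes heart and limb defects, was at 26.9, 22.2 and 21.8 CPM in Sham, 13.9, 21.4 and 25.5 in HF, 21.8, 16.5 and 18.7 in HFE and 16.8, 20.5 and 19.6 in BAIBA rats. The Sham rats were above all HFE and all BAIBA rats, the first by a narrow margin (21.80 against 21.77), and the HF rats spanned almost the whole range. Tbx5 was 0.805-fold as high in HFE as in Sham rats (log2 fold change -0.31, SE 0.14) and 0.806-fold as high in BAIBA as in Sham rats (-0.31, SE 0.13), with adjusted p-values of 0.455 and 0.663 from edgeR, and the second log2 fold change was -0.21 without Sham rat 1. The atrial marker sum was also higher in every Sham rat than in every BAIBA rat and than in HFE rats 2 and 3, and its part in the level of Tbx5 was not tested. Tbx20, which restrains or activates chamber genes with its partners and keeps adult cardiomyocytes working, was at 18.2, 10.6 and 22.5 CPM in Sham, 18.0, 21.5 and 18.9 in HF, 14.2, 12.9 and 13.2 in HFE and 8.09, 15.5 and 20.6 in BAIBA rats. The HFE rats were close together and below all HF rats, while the Sham and BAIBA rats were widely spread. Tbx20 was 0.691-fold as high in HFE as in HF rats (log2 fold change -0.53, SE 0.12, unadjusted p = 0.00217, edgeR adjusted p = 0.627). BAIBA rat 1, which stood apart on the marker sums, had the lowest Tbx20 value of all 12 rats, and without it the log2 fold change of BAIBA against HF was -0.10 instead of -0.40.

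For the HAND pair, the bases before the start of each gene are shown because these paralogs differed most in level. They were taken from RefSeq (GRCr8), which held a promoter for 8 of the 10 members; Gata4 and Mef2c were not matched. The sequences run 5′ to 3′ over 250 bases that end just before the start site, both on the minus strand, at chr10:42509685-42509934 for Hand1 and chr16:37931489-37931738 for Hand2. Capitals mark any of 5 motifs searched on both strands: a GATA site (AGATAA or TGATAA), an E-box (CANNTG), a T-box half-site (AGGTGT), an NKX2-5 site (TNAAGTG) and a TATA box (TATAAA).
Hand1: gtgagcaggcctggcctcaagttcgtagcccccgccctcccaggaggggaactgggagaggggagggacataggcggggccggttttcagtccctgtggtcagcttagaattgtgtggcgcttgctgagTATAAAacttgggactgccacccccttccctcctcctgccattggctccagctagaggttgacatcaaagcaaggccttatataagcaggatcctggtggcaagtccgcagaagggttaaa
Hand2: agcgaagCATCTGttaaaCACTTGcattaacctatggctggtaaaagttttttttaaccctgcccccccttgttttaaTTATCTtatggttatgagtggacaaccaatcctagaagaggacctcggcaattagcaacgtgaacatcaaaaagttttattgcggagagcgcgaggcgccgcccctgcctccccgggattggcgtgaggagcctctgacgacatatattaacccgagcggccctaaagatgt
The Hand1 window held 1 TATA box, which 12.9% of 33469 such windows hold. The Hand2 window held 1 GATA site (in 16.9% of windows) and 2 E-boxes (in 65.5% at least 1), the motif that HAND proteins themselves bind with a partner. Among the other members, the Tbx5 window held 1 GATA site and 1 E-box, the Nkx2-5 window held 1 E-box, and the windows of Gata6, Tbx20, Mef2a and Mef2d held none of the 5 motifs. A T-box half-site (11.6% of windows) and an NKX2-5 site (9.89%) were in none of the 8 windows. Such matches are letters in a window and no measure of binding.

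Hand1 and Hand2 mark the left and the right ventricle in the embryo. Hand1 had 12 reads in all 12 rats together, namely 0 in the Sham rats, 2, 0 and 3 in the HF rats, 0, 1 and 1 in the HFE rats and 0, 3 and 2 in the BAIBA rats. A count of 0 over the Sham group allows up to 0.0632 CPM (3 counts over the group's total), and the pooled level was 0.0947 CPM in HF (95% exact Poisson interval 0.0308 to 0.221, counting error only) and 0.101 CPM in BAIBA rats (0.0329 to 0.237). The pooled level in HFE rats was 0.0431 CPM (0.00522 to 0.156), and the same kind of interval reached 0.0777 CPM in Sham rats. These intervals overlapped, which is no test of a difference. The exact permutation test gave p = 0.4 for Hand1 in HF, HFE and BAIBA against Sham, where its smallest p is 0.1. Hand2 was at 9.92, 3.24 and 8.67 CPM in Sham, 9.12, 8.71 and 10.8 in HF, 8.32, 8.44 and 8.10 in HFE and 11.6, 13.2 and 11.5 in BAIBA rats. All BAIBA rats were above all other rats, Sham rat 2 was far below all others at 50 reads, and the HFE rats differed by less than 0.4 CPM. Hand2 was 1.46-fold as high in BAIBA as in HFE rats (log2 fold change 0.55, SE 0.14, unadjusted p = 0.00381, edgeR adjusted p = 0.229) and 1.27-fold as high in BAIBA as in HF rats (0.34, SE 0.15, edgeR adjusted p = 0.852). Against Sham it was 1.66-fold as high (0.73, SE 0.37, edgeR adjusted p = 0.728), a value that was 0.38 without Sham rat 2. The exact permutation test over the 4 groups gave p = 0.106 for Hand2. Without BAIBA rat 1, whose epicardial and fibroblast sums were the highest, Hand2 had a log2 fold change of 0.57 against HFE and 0.38 against HF. The epicardial sum was 31.4 and 45.8 CPM in the other BAIBA rats and 25.3 to 33.0 in the rats of the other groups, and its part in the level of Hand2 was not tested.

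The MEF2 genes bind AT-rich sites in muscle promoters and are held in check by class IIa histone deacetylases. Mef2a was at 98.9, 77.7 and 73.7 CPM in Sham, 72.7, 86.7 and 66.9 in HF, 69.6, 81.0 and 82.5 in HFE and 49.5, 81.7 and 71.1 in BAIBA rats. All groups overlapped, and BAIBA rat 1 was again the lowest of the 12 rats. Mef2c, the earliest of the family in the heart, was at 102.6, 110.2 and 116.8 CPM in Sham, 97.0, 106.7 and 82.7 in HF, 93.3, 113.7 and 99.6 in HFE and 92.3, 111.0 and 107.5 in BAIBA rats. It had the smallest spread of the members over the 12 rats, with a coefficient of variation of 9.83%, and its groups overlapped in every comparison. Mef2c had the lowest adjusted p of the members in HF against Sham (0.868-fold, log2 fold change -0.20, SE 0.11, edgeR adjusted p = 0.808), and its log2 fold change was -0.11 without HF rat 3. Mef2d, the most abundant family member per gene length, was at 65.0, 65.0 and 62.6 CPM in Sham, 63.1, 65.95 and 69.5 in HF, 55.7, 57.0 and 70.8 in HFE and 48.7, 57.1 and 62.5 in BAIBA rats. The BAIBA rats were below all Sham and all HF rats, by a small step from the highest BAIBA rat to the lowest of the others. Mef2d was 0.877-fold as high in BAIBA as in Sham rats (log2 fold change -0.19, SE 0.11) and 0.847-fold as high in BAIBA as in HF rats (-0.24, SE 0.12), with edgeR adjusted p-values of 0.757 and 0.852. Without BAIBA rat 1, the lowest, these log2 fold changes were -0.10 and -0.14.

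**Figure D3:**
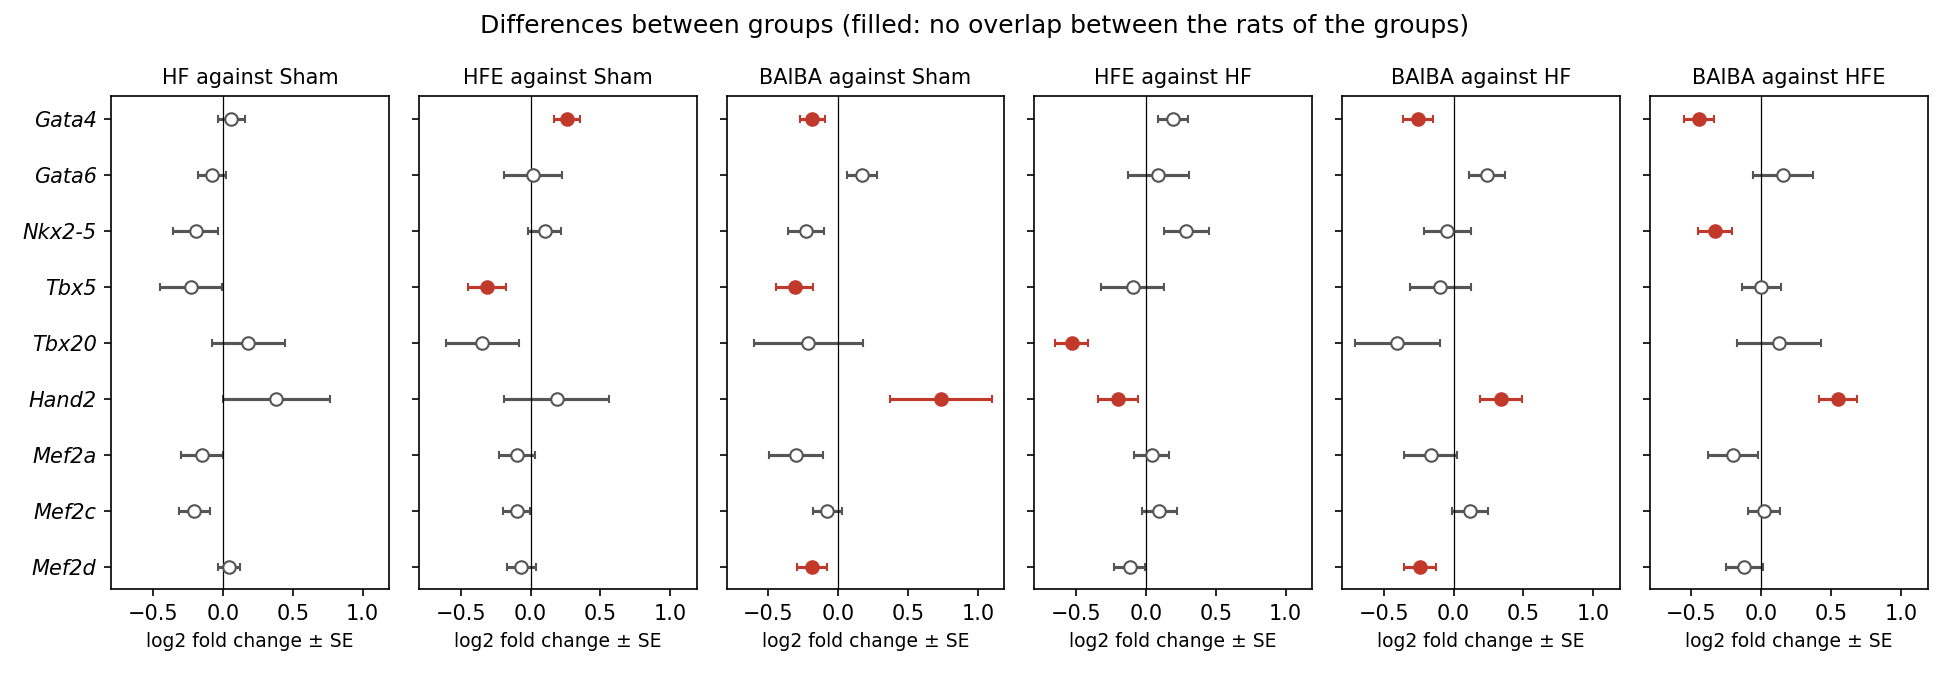
Log2 fold change ± SE (edgeR, 3 against 3 rats) of the 9 tested genes in the 6 comparisons, with filled red points where the rats of the groups did not overlap in TMM-scaled CPM. Filled points number 0, 2, 4, 2, 3 and 3 from left to right, and the largest value is that of Hand2 in BAIBA against Sham (0.73, SE 0.37).

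Across the 12 rats the members did not vary as a block. Of the 36 pairs among the 9 tested genes, 20 had a positive Pearson r of log2 CPM, and r ranged from -0.48 to 0.63. Gata4 and Nkx2-5, whose proteins bind each other, had r = 0.632 (permutation p = 0.0279, adjusted over 36 pairs 0.681) and Spearman's rho = 0.643 (permutation p = 0.0278, adjusted 0.500). With the 2 rats farthest from the median of Gata4 left out, r was 0.487, and with the group means removed it was 0.521. Mef2a and Mef2d had r = 0.596 (permutation p = 0.0468, adjusted 0.681) and rho = 0.469 (permutation p = 0.128, adjusted 0.904). Their r was 0.0333 without the 2 rats farthest from the median of Mef2a, and 0.525 with the group means removed. The r over 12 rats thus depended on those 2 rats. The strongest rank correlation of the 36 pairs was between Gata4 and Hand2, with rho = -0.727 (permutation p = 0.00941, adjusted 0.339). Their Pearson r was -0.33 (permutation p = 0.311, adjusted 0.896), -0.39 without the 2 rats farthest from the median of Gata4 and -0.10 with the group means removed. No pair passed after adjustment by either measure. The T-box genes had r = 0.317 and the GATA genes r = -0.10 with each other. Gata4 and Mef2c had r = -0.48 over all rats and -0.88 with the group means removed, and Gata6 with Mef2d had 0.31 and 0.77, both picked out after their values were seen.

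**Figure D4:**
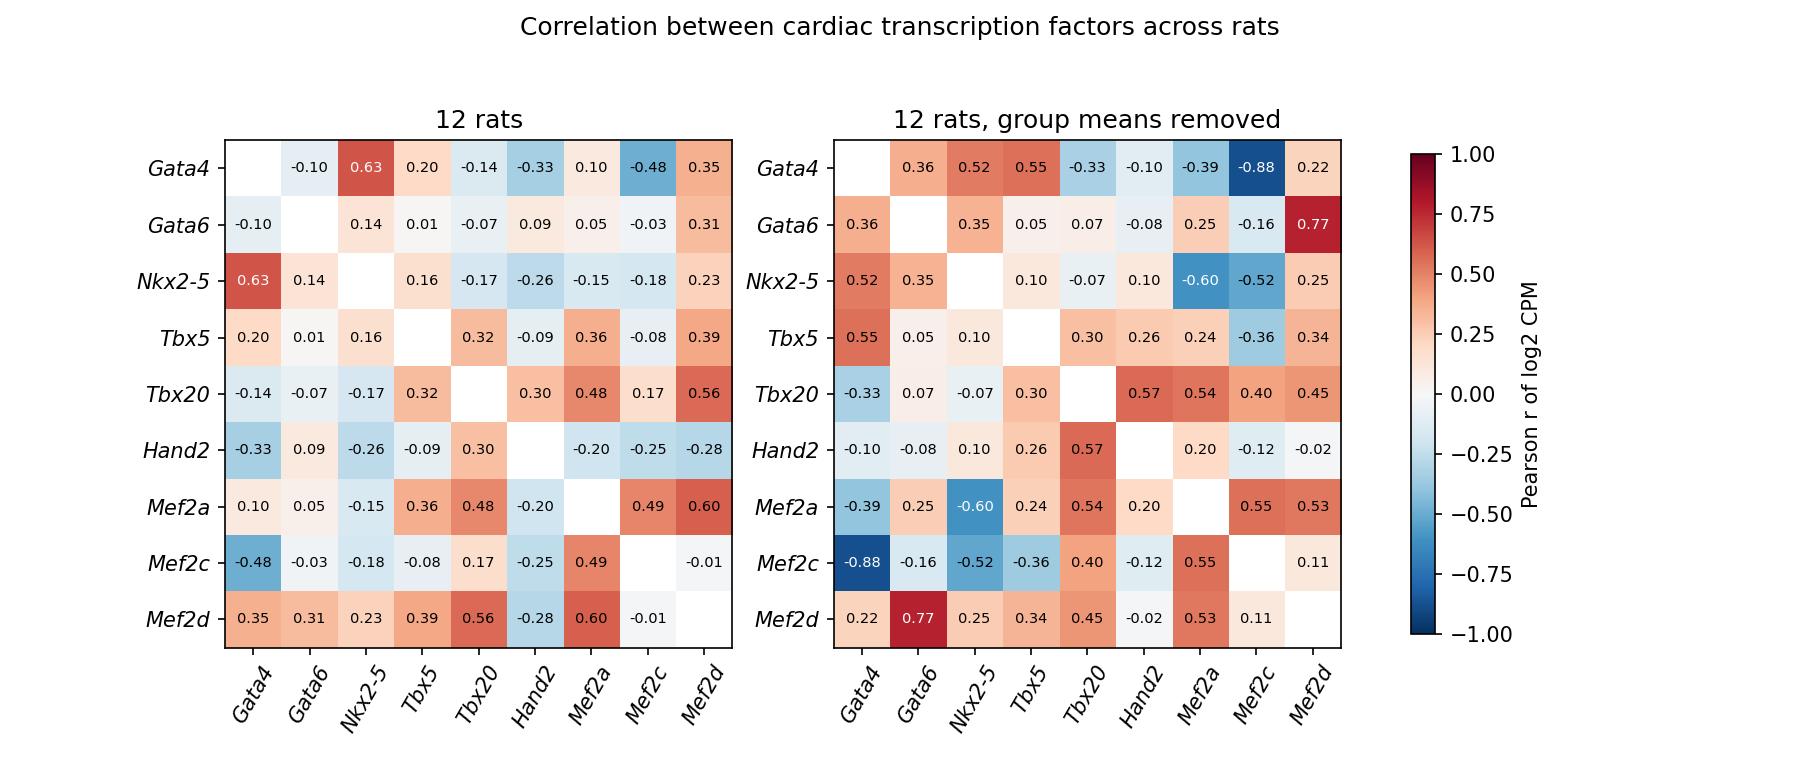
Pearson r of log2 CPM for the 36 pairs of the 9 tested genes over 12 rats (left) and after removal of each group's mean (right), on a colour scale from -1 to 1. Most cells on the left are pale, with Gata4 and Nkx2-5 at 0.63, and on the right Gata4 and Mef2c are at -0.88.

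The genes whose log2 CPM tracked each member most closely over the 12 rats, out of 12957 genes with a symbol and a mean of 1 CPM or more, were different for each member. They were Slc35f5, Btbd10 and Nav2 for Gata4 (r = 0.90, 0.88 and 0.87), Irf2bp2, Adcy6 and Cdc42ep4 for Gata6 (0.88, 0.88 and 0.86) and Extl1, Mrps10 and Smpd1 for Nkx2-5 (0.90, 0.89 and 0.87). For Tbx5 they were Rab11fip5, Map2k3 and Prag1 (0.88, 0.87 and 0.86), for Tbx20 Phkb, Prkca and Lrrc8b (0.92, 0.91 and 0.89) and for Hand2 Fbh1, Ptpn13 and Ago4 (0.90, 0.90 and 0.85). For Mef2a they were Ccdc149, Cecr2 and Rubcn (0.92, 0.89 and 0.88), for Mef2c Srpx, Usp53 and Kcnd3 (0.89, 0.89 and 0.85) and for Mef2d Mn1, Gnl3l and Prrc2b (0.93, 0.93 and 0.92). They are the highest of many correlations over few rats that share libraries, so the values are high by selection.

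The partners of the members were listed with them: relatives, cofactors such as Zfpm2, Srf and Myocd, and repressors such as the histone deacetylases. Of 36 partners, 31 to 33 were tested, and edgeR called 0 in 5 comparisons and 1 in BAIBA against HFE. The called gene was Myocd, whose protein, myocardin, joins SRF to activate cardiac and smooth muscle genes and works with MEF2 and GATA4. Myocd was at 62.8, 41.5 and 36.2 CPM in Sham, 33.1, 60.7 and 53.4 in HF, 48.7, 54.0 and 56.1 in HFE and 29.9, 28.2 and 28.3 in BAIBA rats. All BAIBA rats were below all other rats, as for Gata4 with TMM scaling, and Myocd fell by 0.88 on the log2 scale in BAIBA against HFE (SE 0.10, adjusted p = 0.0291 by edgeR's quasi-likelihood test). The call was lost under 10 of 16 alternatives, among them each fit without HFE rat 1, 2 or 3 or BAIBA rat 2 or 3 (edgeR adjusted p from 0.0649 to 0.188) and the fit of all 12 rats (0.184). The unadjusted p was under 0.05 for 3, 5, 8, 6, 3 and 7 of the partners over the 6 comparisons in the order given above, beside the same shares of all genes (5.55% to 11.2%). DESeq2 called Srf higher and Cited2 lower in HFE against Sham (1.11% of all genes called), Prox1 lower in BAIBA against Sham (0.659%), and Srf, Myocd and Prox1 lower in BAIBA against HFE (2.03%).

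Of 24 genes known as targets of these factors, such as natriuretic peptides, myosins, troponins and connexins, all were tested, and edgeR called 0 in 4 comparisons and 1 each in BAIBA against Sham and BAIBA against HFE. The called gene was Myh7, the slow myosin heavy chain of the fetal and loaded rat ventricle, which GATA4 and MEF2 activate. Myh7 was at 7445 to 7980 CPM in Sham, 8573 to 17480 in HF, 12840 to 16590 in HFE and 3093 to 3597 in BAIBA rats. Its neighbour Myh6 is similar in sequence, and the split of reads between these genes was not tested. Myh7 fell by 2.08 on the log2 scale in BAIBA against HFE (SE 0.13, edgeR adjusted p = 0.00237), a call kept under all 16 alternatives. In BAIBA against Sham it fell by 1.17 (SE 0.10, edgeR adjusted p = 0.00864), a call lost under 5 of 16 alternatives (adjusted p from 0.0555 to 0.302), among them each fit without 1 of the 3 Sham rats and the fit of all 12 rats. The other 23 targets did not pass. The unadjusted p was under 0.05 for 5, 10, 4, 7, 6 and 10 of the 24 targets over the 6 comparisons, where the shares of all genes were 6.0%, 11.2%, 7.41%, 7.62%, 5.55% and 9.57%. The median log2 fold change of the targets was -0.05, 0.08, -0.19, 0.17, -0.10 and -0.25 in the same order, and that of the partners was -0.06, 0.08, -0.02, 0.09, 0.01 and -0.04. Over all genes tested the median was between -0.01 and 0.01 in each comparison. Both lists were chosen with earlier results of these data known, so these counts and medians are a description and no test of the lists. DESeq2 called 5 targets lower in BAIBA against HFE (Nppb, Myh7, Actc1, Gja1 and Myom2), where it called 2.03% of all genes. It called Gja1 higher in HFE against HF, Myh6 lower in HF against Sham and in HFE against Sham, Myh7 higher in HFE against Sham and lower in BAIBA against HF and Sham. In these other comparisons it called 0.222% to 1.11% of all genes. Over the 4 groups, with 1.97% of all genes called, DESeq2 called the partners Srf, Prox1 and Prdm16 and the targets Nppb, Myh6, Myh7, Actc1 and Tnnc1.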

How the data were processed

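Heart RNA of 12 rats in 4 labelled groups of 3 was bound to oligo(dT) beads and sequenced from paired ends. Reads were aligned with HISAT2, further genes were assembled with StringTie and Gffcompare, and reads were counted on genes with featureCounts of Subread, followed by DESeq2, as the methods and the submitters' processing notes state. Tool versions and the annotation are not given in the sources used here. The notes name mm9, a mouse build, while the gene identifiers are of the rat, so no coordinates were taken from the files. The counts were deposited by the authors as whole numbers without normalization. From these counts and gene lengths the authors made the deposited FPKM values, and a second deposited copy of both had a largest difference of 0.

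Counts were tested with edgeR 4.0.16 in R 4.3.3 (TMM, filterByExpr, robust quasi-likelihood fits of the 2 groups compared, adjusted p under 0.05, no limit on the fold), and SE is the log2 fold change over the square root of F. The test of any difference among the 4 groups took all 12 rats and tested 3 group coefficients together. The fit of all 12 rats among the alternatives tested only the 2 groups compared, within a joint fit. Single genes were also compared by two-sided exact permutation tests of log2(CPM + 0.1), whose smallest p is 0.1 for 3 against 3 rats (20 assignments) and 6.49e-05 for 4 groups. Correlations were taken on log2 CPM (prior count 2) with 100000 permutations (scipy 1.17.1). Depth was 14812541 to 19732588 counts per rat, and intervals on counts cover counting error only. The procedure was tested on simulated data.

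Alternatives were DESeq2 1.42.0, RLE factors, library-size scaling, a filter of 1 count in any rat or of 10 counts in all of them, a joint fit of the 12 rats, the replicate block, each rat left out, an absolute log2 fold change over 1, limma 3.58.1 on log2(FPKM + 1) and log2(FPKM + 0.1) at a mean FPKM of at least 0.1 and on log2(FPKM + 1) without this filter, and, for the permutation tests, log2(CPM + 1) and CPM by library size. Replicate numbers come from the sample titles, and same-numbered rats are different animals. Their deviations from the group means correlated at 0.118 to 0.224 in all 3 pairs of BAIBA and HFE rats, and in no other comparison were all 3 pairs above 0.1.

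The members and the lists of partners, targets and markers were chosen with earlier results of these data known. All members are named, partners and targets are named where edgeR called them or, as a description, where DESeq2 did, and the 3 genes most like each member were taken by Pearson r. Mrtfb, Ttn and Pecam1 were not analysed here. All 10 symbols were found in RefSeq (GRCr8).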

Additional observations from a re-analysis of the deposited data

How the results depend on the processing

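The count of members called was 0 in all 6 comparisons and over the 4 groups under edgeR with RLE factors, library-size scaling, either other filter, the fit of all 12 rats, the replicate block, limma on FPKM and each rat left out (0 to 0). It was 1 with DESeq2 in BAIBA against HFE and 1 with DESeq2 over the 4 groups, Gata4 both times (adjusted p 0.0374 and 0.0457), and the cause was not tested. The replicate block moved calls over all genes from 16 to 50 in BAIBA against HFE, from 6 to 9 in BAIBA against Sham, from 0 to 1 in HFE against Sham and from 0 to 5 over the 4 groups. It changed no call of a member. What same-numbered rats share besides the number is not given in the labels.

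Of 864 recomputed log2 fold changes of the members, 831 kept their direction and side of the threshold, 1 passed it (Gata4 with DESeq2) and 32 changed sign, all of them for differences of at most 0.21 in absolute value. Gata6 in HFE against Sham (0.02) was -0.044 with library-size scaling, -0.028 with the replicate block, -0.082 and -0.087 with limma on log2(FPKM + 1) and log2(FPKM + 0.1), and -0.082 without the FPKM filter. The other changes of sign came from leaving out 1 rat. Over the rats left out, the values ranged in HF against Sham from -0.022 to 0.11 for Gata4, -0.068 to 0.43 for Tbx20 and -0.27 to 0.0017 for Mef2a. In HFE against Sham they ranged from -0.28 to 0.16 for Gata6, -0.17 to 0.48 for Hand2 and -0.18 to 0.037 for Mef2a, and in BAIBA against Sham from -0.54 to 0.080 for Tbx20. In HFE against HF they ranged from -0.21 to 0.24 for Gata6, -0.30 to 0.10 for Tbx5 and -0.041 to 0.15 for Mef2a. In BAIBA against HF they ranged from -0.16 to 0.14 for Nkx2-5, -0.30 to 0.11 for Tbx5 and -0.32 to 0.022 for Mef2a. In BAIBA against HFE they ranged from -0.00020 to 0.45 for Gata6, -0.090 to 0.11 for Tbx5, -0.19 to 0.42 for Tbx20 and -0.042 to 0.11 for Mef2c. The 140 recomputed permutation p-values kept their side of 0.05, but those of 2 groups could not cross it, since their smallest p is 0.1. With library-size CPM the exact permutation p for Gata4 went from 0.1 to 0.3 in HFE against Sham. It went to 0.2 for Gata4 in BAIBA against Sham and against HF, and for Nkx2-5 in BAIBA against HFE. With 3 rats a group, small differences were not resolved, and at 12 reads in all, depth limits any statement on Hand1.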
